A study of Mus musculus with 51 samples.

Results

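RNA of LoNA knockout (LoNA KO) mouse embryos was followed through 18h, 20h and 22h in 9 libraries, 3 at each time, of a series with 51 labelled samples, 38 of them RNA samples. The libraries were taken as the KO columns of the 3 deposited count tables for these times, joined on the gene ID, with a gene missing from a table counted as 0. The labels list 4 KO samples at each time, 12 in all, so the libraries are numbered here by their column and not by a labelled replicate. All of them are two-cell embryos of strain C57BL/6 with the genotype LoNA KO, and no further allele or agent is named. The labels do not say from which event the hours are counted, how the knockout was made, how many embryos a library pooled or how RNA was selected, and a p-value here measures the spread between these libraries. Control embryos of the same strain and times, also 9 libraries, were used only to set a control change beside a KO change. Each time has its own table, so time and table cannot be told apart.

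LoNA is a long noncoding RNA of the nucleolus, the nuclear body in which ribosomal RNA is made and ribosomes are assembled, and the series asks how its loss acts on transcription at the two-cell stage. In a mouse embryo of this stage, RNA stored by the oocyte is cleared while the embryo's own genome is switched on in a minor and then a major wave. The minor wave includes short-lived two-cell transcripts such as the Zscan4 genes, and the major wave brings genes for RNA processing, ribosome assembly, protein turnover and the cell cycle. Nucleophosmin (Npm1) is a chaperone of the nucleolus, and Polycomb repressive complex PRC2, with Ezh2 as its enzyme, places the repressive mark H3K27me3.

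A library held 12135448 to 17724874 counts and showed between 17125 and 20732 genes. The KO libraries differed widely among themselves, with a biological coefficient of variation of 79.9%. Levels in log2 CPM (the usual library-size scaling of counts, here on sizes adjusted by TMM) correlated at 0.825 to 0.836 within 18h, 0.813 to 0.847 within 20h and 0.909 to 0.926 within 22h, against 0.781 to 0.848 between times. No gene in the tables is named LoNA, so the knockout was not checked under that name. Gm17382, a lincRNA chosen because earlier results of these libraries showed it lower in KO than in control embryos, had 1, 0 and 1 counts at 18h, 1, 3 and 1 counts at 20h and 2, 0 and 2 counts at 22h. It was too low to be tested over time.

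Nearly all genes that passed did so in comparisons with 22h. Of 16519 genes tested, 685 were higher (4.15%) and 654 lower (3.96%, or 8.11% in either direction) at 22h than at 20h, and 321 were higher (1.94%) and 246 lower (1.49%, or 3.43% in either direction) at 22h than at 18h, at an edgeR adjusted p under 0.05. Between 20h and 18h, 5 genes were higher (0.0303%) and 1 lower (0.00605%), although 2856 genes had an unadjusted p under 0.05. The same unadjusted count was 3717 for 22h over 20h and 3045 for 22h over 18h. These 3 comparisons share libraries and are not independent of each other. DESeq2 called more genes in each, namely 1122 higher and 1265 lower for 22h over 20h, 718 and 883 for 22h over 18h, and 622 and 531 for 20h over 18h. With median-of-ratios factors in edgeR, the split for 22h over 18h was 278 higher and 331 lower, so which direction holds more genes depends on the scaling. With 22h library 3 left out, 38 genes were higher and 9 lower for 22h over 18h, and 102 and 126 for 22h over 20h.

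**Figure D1:**
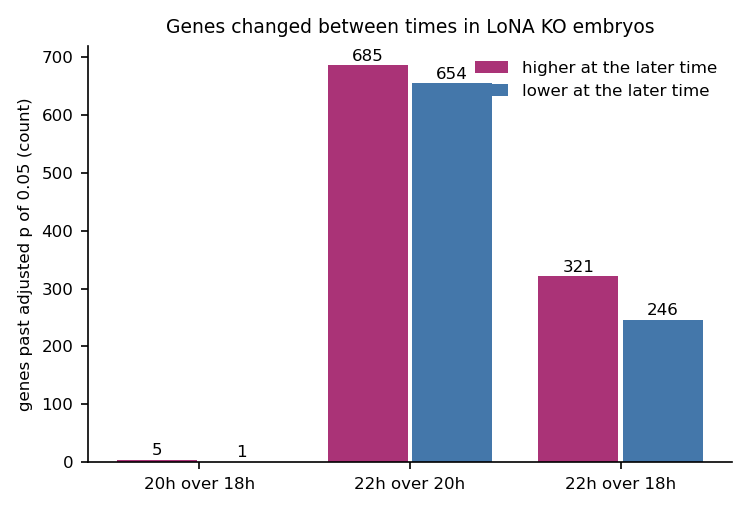
Number of genes past an edgeR adjusted p of 0.05 in each pairwise comparison of times in LoNA KO embryos, higher or lower at the later time (3 libraries a time). The bars read 5 and 1 for 20h over 18h, 685 and 654 for 22h over 20h, and 321 and 246 for 22h over 18h.

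A test over all 3 times called 1389 genes (8.41%). Their mean was highest at 22h in 612 genes, at 20h in 539 and at 18h in 238, and it was lowest at 22h in 585, at 20h in 419 and at 18h in 385. Genes higher at 22h than at 18h were protein-coding in 97.2% of cases and those lower in 64.2%, against 79.5% of all genes tested. Among protein-coding genes the median span on the genome was 23.7 kb for those higher, 13.4 kb for those lower and 26.1 kb for all. For 22h over 20h the spans were 25.1 kb for genes higher and 10.1 kb for genes lower. The part of gene length in these calls was not tested.

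Among protein-coding genes with the largest rises at 22h over 18h, Med17, a subunit of the Mediator complex that links transcription factors to RNA polymerase II (ENSMUSG00000031935, mm10 chromosome 9, 15260351 to 15279931, minus strand), stood out for its small spread. It measured 11.5, 13.1 and 9.83 CPM at 18h, 40.6, 25.7 and 19.3 CPM at 20h, and 236, 180 and 146 CPM at 22h. The groups did not overlap at any pair of times, and the log2 change for 22h over 18h was 4.03 ± 0.37 (SE, adjusted p = 0.00107). A second Mediator subunit, Med18, measured 1.56, 1.3 and 4.42 CPM at 18h, 10.8, 3.17 and 10.4 CPM at 20h and 34.7, 20.5 and 31.3 CPM at 22h, a change of 3.57 ± 0.67 for 22h over 18h (adjusted p = 0.0153). Its 22h libraries were all above the others, and its 18h and 20h libraries overlapped.

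Cdca2, which targets protein phosphatase 1 to chromosomes as mitosis ends, measured 11.3, 5.14 and 12.4 CPM at 18h, 25.4, 20.9 and 19.1 CPM at 20h and 105, 149 and 125 CPM at 22h. Its change for 22h over 18h was 3.71 ± 0.39 (adjusted p = 0.00204), and its libraries rose in 2 steps without overlap. The zinc finger genes Zfp866 and Zfp791 rose by 4.12 ± 0.71 and 3.60 ± 0.39, and Uqcrfs1, the iron-sulphur subunit of respiratory complex III, by 3.66 ± 0.64. Sbk3, Ginm1, Tmem47 and 1700017B05Rik completed the 10 largest, with log2 changes of 4.71, 3.83, 3.62 and 3.46. Kpna2, an importin that carries proteins into the nucleus, and Tacc3, a protein of the mitotic spindle, were picked after their values were seen. Kpna2 averaged 379 ± 95.9 CPM at 18h, 357 ± 116 CPM at 20h and 3006 ± 96.9 CPM at 22h (SD, n = 3 each), and Tacc3 89.2 ± 33.5, 111 ± 8.13 and 580.3 ± 79.2 CPM.

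The largest falls at 22h over 18h were in genes that were at or below 3 CPM in nearly every 22h library, so the size of their log2 change rests on few counts. AF067063, a member of a group of near-identical genes expressed at the two-cell stage, measured 217, 70.3 and 24.9 CPM at 18h, 26.9, 1.24 and 4.38 CPM at 20h and 0.63, 0.334 and 2.86 CPM at 22h. The 18h libraries themselves spread widely, and the 18h and 20h groups overlapped, while every 22h library was below every 18h library (-6.35 ± 1.24, adjusted p = 0.0174). Reads of such copies can be split or lost in counting, so levels of AF067063 and AF067061 (-5.61 ± 1.22) are uncertain. B020004C17Rik, Gm21761, Gm11756 and D13Ertd608e fell by 8.36, 5.77, 5.39 and 5.11 on the log2 scale. Gm21761 and D13Ertd608e lie close to AF067063 on chromosome 13, and whether they share its uncertainty was not tested. B020004C17Rik had an SE of 2.12 (adjusted p = 0.0487) and measured 326, 35.7 and 19.3 CPM at 18h. Gm21761 measured 156, 29.3 and 7.48 CPM and D13Ertd608e 102, 42.2 and 14.1 CPM at 18h, also highest in library 1. Cypt2 and Spz1, both known from male germ cells, fell by 7.31 and 5.10, the olfactory receptor gene Olfr118 by 6.10, and Gm7102 by 6.30 with an adjusted p that rounds to 0.05. Fth1, the heavy chain of the iron store ferritin, was picked after its values were seen and fell at a higher level, with 914, 1064 and 539 CPM at 18h, 1640.1, 1362 and 1438 CPM at 20h and 286, 311 and 236 CPM at 22h.

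**Figure D2:**
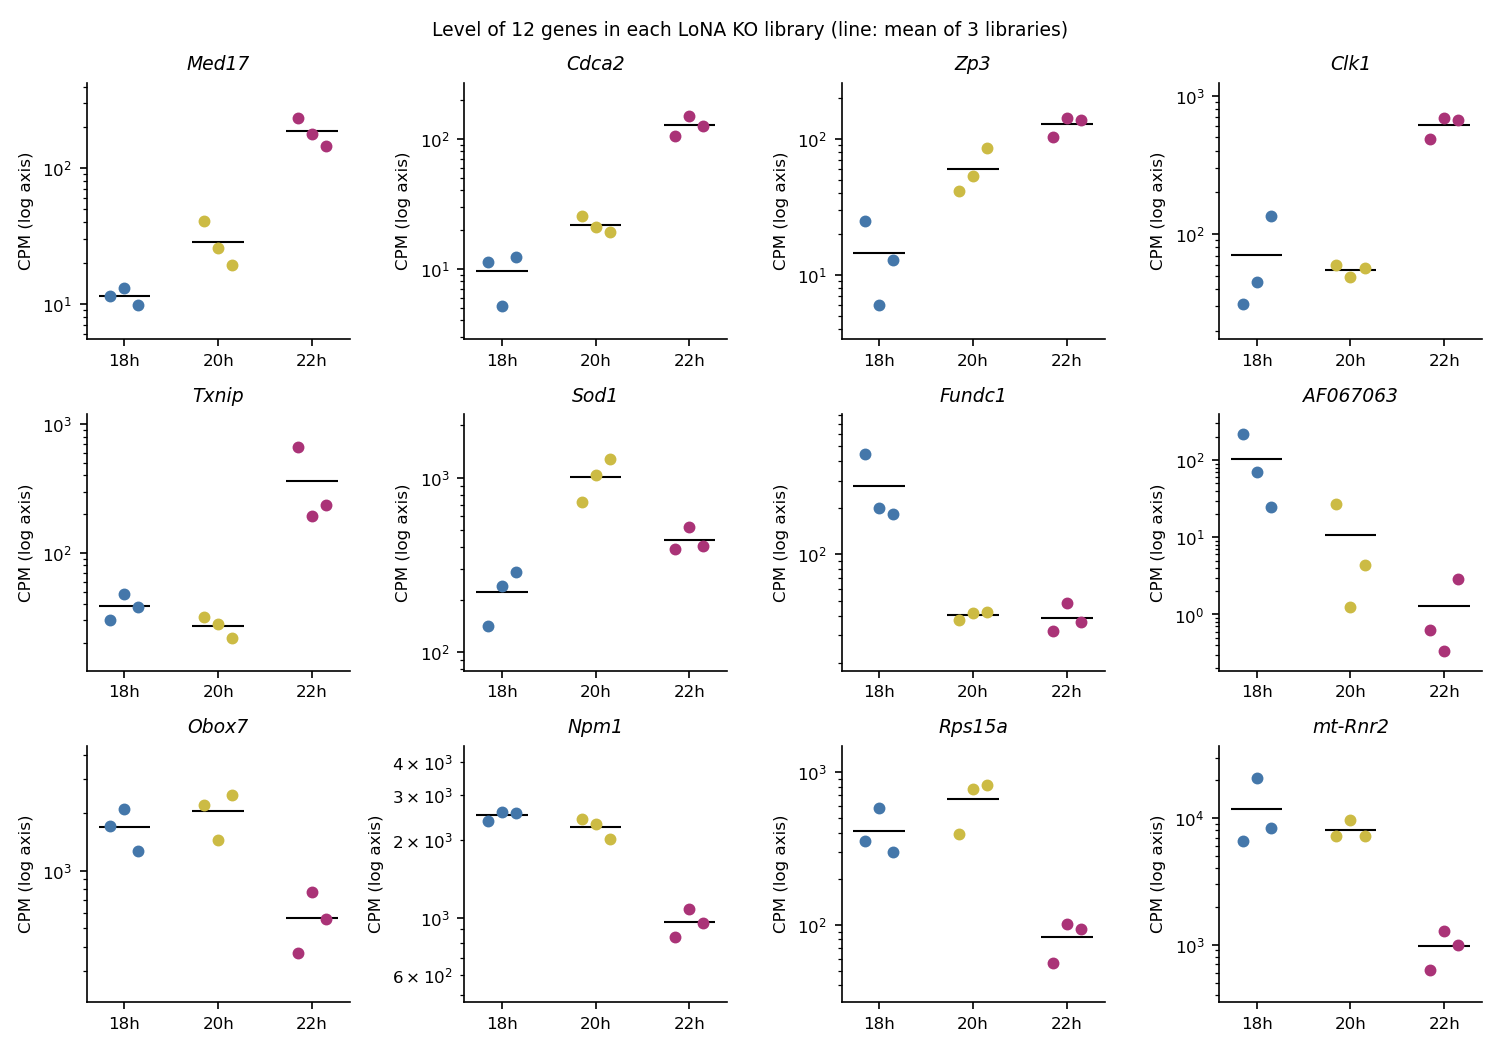
Level of 12 genes in each LoNA KO library at 18h, 20h and 22h, as CPM on a log axis, with a line at the mean of 3 libraries. In Med17, Cdca2 and Zp3 the 3 times are stepped upward, Clk1 and Txnip are high at 22h alone, Sod1 is highest at 20h, Fundc1 is high at 18h alone, and Obox7, Npm1, Rps15a and mt-Rnr2 are low at 22h.

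The 6 genes (0.0363%) that passed between 20h and 18h each had an adjusted p of 0.048. Their libraries did not overlap, but neither did those of any of the 321 and 246 genes called for 22h over 18h. Non-overlap comes with the call and is a description, here and for other genes, and its share over all genes tested was not counted. Sod1, the cytosolic superoxide dismutase, measured 141, 239 and 287 CPM at 18h, 726, 1039 and 1278 CPM at 20h and 393, 520 and 406 CPM at 22h. Its peak at 20h gave a change of 2.19 ± 0.33 for 20h over 18h and -1.21 ± 0.33 for 22h over 20h (adjusted p = 0.0383). The other genes that rose were Anapc11, the RING subunit of the anaphase-promoting complex (3.11 ± 0.46), the ubiquitin ligase Rnf216 (2.21 ± 0.33), the deubiquitinase Otub1 (2.03 ± 0.30) and 1110059G10Rik (2.78 ± 0.40). Fundc1, a receptor for the removal of mitochondria by autophagy, measured 445, 200.1 and 181 CPM at 18h, 37.8, 42 and 42.7 CPM at 20h and 31.8, 48.3 and 36.4 CPM at 22h (-2.75 ± 0.37 for 20h over 18h). None of the 6 passed with median-of-ratios factors or without any single 22h library, and without 20h library 1 the counts were 186 higher and 127 lower. Gm10324, Zscan4-ps3, Rab8b and Gm6902 had the next smallest p among protein-coding genes that were lower, each with an adjusted p of 0.0935.

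Among the 10 protein-coding genes with the largest rises at 22h over 20h, Clk1, a kinase of splicing factors, measured 31.2, 45.2 and 136 CPM at 18h, 59.3, 48.8 and 56.9 CPM at 20h and 488, 686 and 671 CPM at 22h (3.48 ± 0.48, adjusted p = 0.00467). Txnip, an inhibitor of thioredoxin that responds to glucose, measured 30, 48 and 37.8 CPM at 18h, 31.9, 28.2 and 21.8 CPM at 20h and 662, 193 and 236 CPM at 22h (3.74 ± 0.46, adjusted p = 0.00416). In both genes the 22h libraries lay above all others, with Txnip highest in 22h library 1. Taf6, a subunit of the general factor TFIID, rose by 3.77 ± 0.67, Nmd3, which exports the large ribosomal subunit from the nucleus, by 3.37 ± 0.50, and Haus3, an augmin subunit of the spindle, by 3.19 ± 0.39. Tbc1d10a, Pramef17, Zfp938, Slc35b3 and Gm10324 rose by 4.57, 4.23, 3.83, 3.43 and 3.33.

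The largest falls for 22h over 20h included the neuropeptide gene Gal (-5.39 ± 1.42), the histone gene Hist1h4d (-4.08 ± 0.93), the mitochondrial gene mt-Nd3 (-3.48 ± 0.61) and Prm2, a sperm protamine (-3.38 ± 0.70). Cox6b2, a subunit of cytochrome c oxidase known from testis, fell from a higher level, with 181, 319.6 and 139 CPM at 18h, 316, 693 and 515 CPM at 20h and 28.9, 67.4 and 79.2 CPM at 22h (-3.12 ± 0.46, adjusted p = 0.0049). Its 22h libraries were all below the rest. Fam162b, Lmod3, Klhl14, Ntsr1 and Mpped2 fell by 3.59, 3.43, 3.32, 3.03 and 3.03 on the log2 scale.

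Transcripts encoded by the mitochondrial genome were the list with the largest share of lower members. Of 16 tested, 10 were lower (62.5%, against 1.49% of all genes) and 0 higher at 22h than at 18h. At 22h 10 were also lower (62.5%, against 3.96%) and 0 higher than at 20h. The median log2 changes were -2.17 and -1.98, against a median of 0.02 over all genes in both comparisons. Their summed level was 37013, 107502 and 61794 CPM at 18h, 64481, 47103 and 56075 CPM at 20h and 16488, 24519 and 23008 CPM at 22h. The 18h libraries spread widely in this measure, with library 2 the highest, and every 22h library was below all 6 earlier ones. Mitochondrial genes took 3.99% to 9.84% of counts at 18h, 4.68% to 6.38% at 20h and 1.9% to 2.49% at 22h.

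Both mitochondrial ribosomal RNAs were among the strongest. mt-Rnr2, the large one, measured 6621, 20606 and 8361 CPM at 18h, 7203, 9641 and 7222 CPM at 20h and 629.6, 1282 and 991 CPM at 22h, a fall of 3.62 on the log2 scale from 18h (SE 0.47, adjusted p = 0.00476). mt-Rnr1, the small one, fell by 3.97 from 18h. Of the messenger RNAs, mt-Co3 and mt-Nd3 fell by 3.41 and 3.73, whereas mt-Cytb (-1.24 ± 0.41, adjusted p = 0.12) and mt-Nd1 (-1.22 ± 0.41, adjusted p = 0.127) did not pass. Nuclear copies of mitochondrial sequence can take such reads, and how RNA was selected is not given. Of the mitochondrially encoded transcripts, 3 were lower at 22h than at 18h without 22h library 3, 5 without 22h library 2, and 6 were lower at 22h than at 20h without 22h library 1 or 3. In the bulk libraries, a lower count per embryo and a smaller share of a larger RNA pool cannot be told apart.

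Cytosolic ribosomal proteins, the protein parts of the ribosome, were lower at 22h than at 20h in 21 of 79 tested members (26.6%, against 3.96% of all genes) and higher in 0. Against 18h, 3 were lower and 0 higher (3.80%, against 1.49%). Median log2 changes were 0.43 for 20h over 18h, -1.47 for 22h over 20h and -0.92 for 22h over 18h, and the summed level was 3504 ± 947 CPM at 18h, 5260.3 ± 890.5 CPM at 20h and 1953 ± 126 CPM at 22h (SD, n = 3 each). The 22h libraries lay between 1834 and 2085 CPM, below the lowest of the others at 2415 CPM. The genes that fell against both earlier times were Rps15a, Rps27l and Rpl37a. Their promoters are shown to let the sequence at which these genes start be read beside their levels, as RefSeq gives it on GRCm38.p6 (the assembly named mm10), 100 bases before to 20 bases after the start of the gene. Capitals mark CGGAAG or, for the other strand, its reverse complement CTTCCG, a core bound by ETS family factors.
Rps15a, chr7:118116128-118116247, minus strand: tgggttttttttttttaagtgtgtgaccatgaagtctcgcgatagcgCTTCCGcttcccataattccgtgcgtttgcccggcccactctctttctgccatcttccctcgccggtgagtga
Rps27l, chr9:66945986-66946105, plus strand: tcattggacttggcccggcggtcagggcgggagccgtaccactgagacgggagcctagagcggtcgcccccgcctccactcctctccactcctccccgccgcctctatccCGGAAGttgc
Rpl37a, chr1:72711160-72711279, plus strand: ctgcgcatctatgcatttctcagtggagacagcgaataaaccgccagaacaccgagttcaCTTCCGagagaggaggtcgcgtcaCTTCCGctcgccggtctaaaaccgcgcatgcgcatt

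CGGAAG was present on either strand in 26 of the 59 promoter windows found for the tested ribosomal protein genes (44.1%), in 10 of the 17 found for those lower at 22h than at 20h (58.8%), and in 2865 of 27025 windows of all genes in the table (10.6%). CTTTCC, a pyrimidine stretch, was in 30.5%, 17.6% and 10.5% of the same sets, and TATAAA, the TATA box core, in 3.39%, 0% and 6.46%. The motifs were chosen after the sequences were seen, matches of different motifs may overlap, and a match is a description of the letters and not of binding.

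Rps15a measured 351, 576 and 299 CPM at 18h, 390.3, 769 and 818 CPM at 20h and 55.8, 101 and 93.5 CPM at 22h, a change of -2.98 ± 0.39 for 22h over 20h (adjusted p = 0.00425). Rps27l measured 769, 1344 and 706 CPM at 18h, 1222, 1491 and 1448 CPM at 20h and 164, 296 and 258 CPM at 22h (-2.54 ± 0.34, adjusted p = 0.00467). In all 3 genes every 22h library was below every earlier one. Rpl37a measured 37.9, 35.5 and 32.9 CPM at 18h, 34.1, 39.7 and 41.2 CPM at 20h and 11.5, 9.95 and 8.46 CPM at 22h. Other members that fell from 20h included Rps28 (-2.87), Rpl41 (-2.74), Rps21 (-2.56) and Rpl32 (-2.26), whereas Rpl17 (-0.22, adjusted p = 0.778) and Rplp0 (-0.30, adjusted p = 0.655) did not pass. Ribosomal protein genes have many processed pseudogenes that can take or share reads, so their single values are uncertain. The number of cytosolic ribosomal proteins lower at 22h than at 20h was 4, 5 and 9 without 22h library 3, 1 and 2, 7 and 10 without 20h library 2 and 3, and 36 without 18h library 3.

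Nuclear genes of oxidative phosphorylation, which code for most subunits of the respiratory chain and ATP synthase, had their highest summed level at 20h. It was 3275, 3474 and 3563 CPM at 18h, 4051, 6658 and 7271 CPM at 20h and 2817, 3758 and 3903 CPM at 22h, with all 20h libraries above all others. Of 82 tested, 25 were lower (30.5%, against 3.96% of all genes) and 1 higher (1.22%, against 4.15%) at 22h than at 20h. For 22h over 18h 4 were higher (4.88%, against 1.94%) and 2 lower (2.44%, against 1.49%). For 20h over 18h none passed by edgeR at an adjusted p of 0.05, although 72 of the 82 had a positive log2 change and the median was 1.12. Without 20h library 1, 9 of the nuclear oxidative phosphorylation genes were higher at 20h than at 18h, and DESeq2 called 21. Members that fell from 20h included Uqcr10 (-2.44), Ndufa4 (-2.38), Cox5a (-2.05) and Atp5k (-2.59), and the one that rose was Sdha, the catalytic subunit of complex II (1.24 ± 0.35, adjusted p = 0.0459). Against 18h, genes that rose included Sdhc (2.21), Ndufs4 (1.88) and Uqcrfs1 (3.66), and those that fell were Cox6b2 (-1.87) and Cox5a (-1.55). The nuclear oxidative phosphorylation genes lower at 22h than at 20h were 6, 8 and 12 without 22h library 3, 1 and 2, and 8 and 11 without 20h library 2 and 3.

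Histone genes named as Hist or H1 had summed levels of 262 ± 144 CPM at 18h, 356 ± 89.7 CPM at 20h and 123 ± 10.4 CPM at 22h (SD, n = 3 each). Of 30 tested, 3 were lower (10%, against 3.96% of all genes) and 0 higher at 22h than at 20h. Compared with 18h, 2 were lower at 22h (6.67%, against 1.49%). Those are Hist1h4d and Hist1h3f, which code for core histones H4 and H3, and against 20h also H1f0, a replacement linker histone that the name pattern took in with the replication-dependent histone genes. Hist1h3f measured 27.6, 62.1 and 21.7 CPM at 18h, 21.6, 44.3 and 20.3 CPM at 20h and 5.41, 5 and 5.14 CPM at 22h. Its 22h libraries were nearly equal and below all others (-2.84 ± 0.50 for 22h over 18h, adjusted p = 0.0126). Replication-dependent histone mRNAs lack a poly(A) tail and come from near-identical gene copies, so these counts are uncertain. None of the 30 passed by edgeR in either comparison without 22h library 3.

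**Figure D3:**
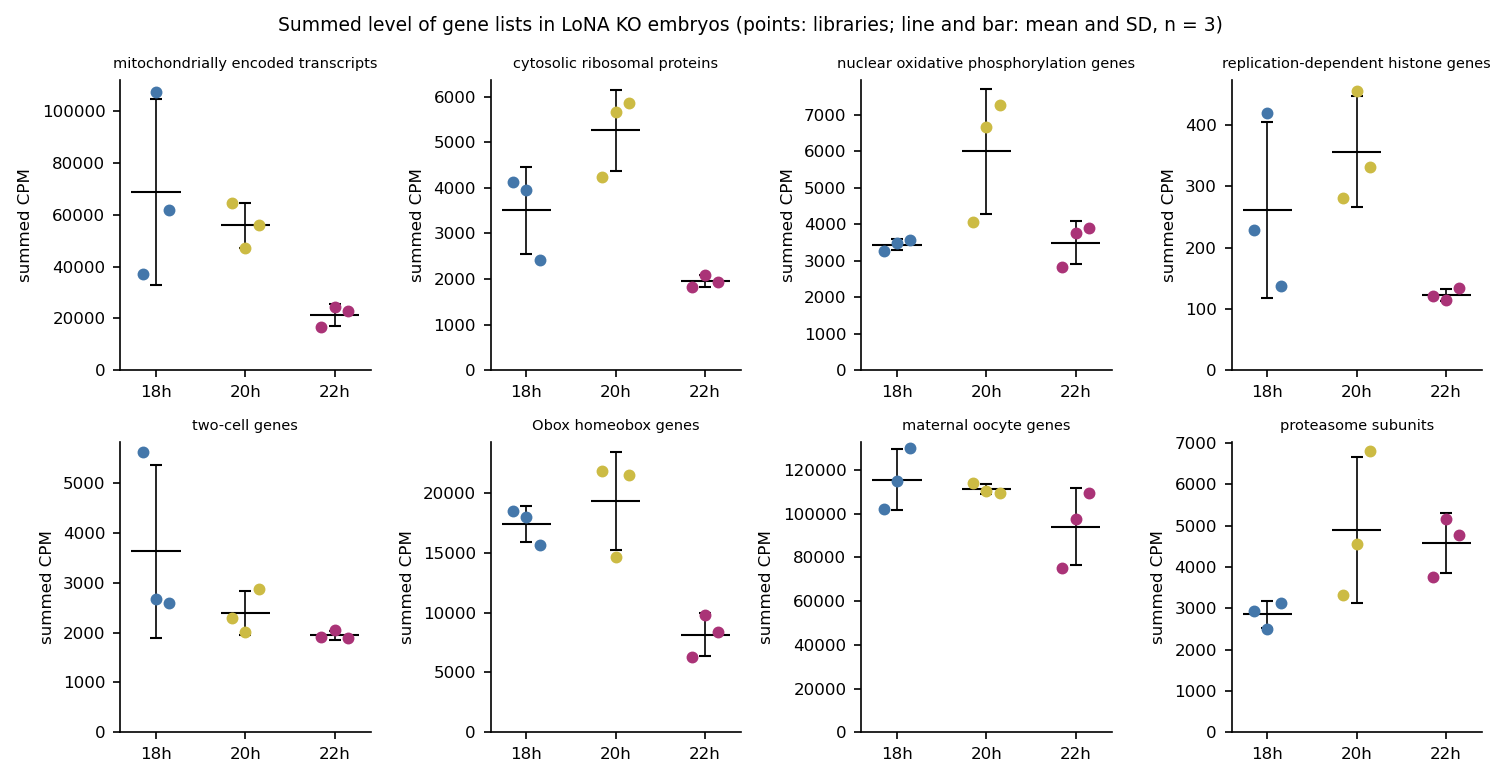
Summed CPM of 8 gene lists in each LoNA KO library by time, with a line at the mean and a bar of 1 SD over 3 libraries, all axes from 0. Mitochondrially encoded transcripts, ribosomal proteins and Obox genes are lowest at 22h without overlap, and nuclear oxidative phosphorylation genes are highest at 20h. The sum of the two-cell genes is highest in 18h library 1 at 5620.2 CPM, and it includes Sp110 at a mean of 885 CPM at 22h.

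Npm1 (ENSMUSG00000057113, mm10 chromosome 11, 33152287 to 33163206, minus strand) was the only member of the ribosome biogenesis and nucleolus list that fell at 22h against 18h. It measured 2367, 2571 and 2549 CPM at 18h, 2403, 2314 and 2022 CPM at 20h and 845, 1077 and 954 CPM at 22h. The 18h and 20h libraries were close and the 22h libraries were 2.60-fold below 18h (-1.38 ± 0.26, adjusted p = 0.0156). Without 22h library 1, 2 or 3 its adjusted p was 0.0761, 0.0674 and 0.105. Ncl, the nucleolar protein nucleolin, measured 295, 442 and 190.1 CPM at 18h, 285, 473 and 182 CPM at 20h and 334, 350.4 and 217 CPM at 22h, with overlap throughout (-0.04 ± 0.39, adjusted p = 0.979). Fbl, the methyltransferase fibrillarin, stayed under 20 CPM in every library and did not pass (-1.41 ± 0.80, adjusted p = 0.39).

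The same list of ribosome biogenesis and nucleolus genes had 8 of 80 members that rose at 22h over 18h (10%, against 1.94% of all genes) and 1 that fell. Utp4, a subunit of the complex that starts small subunit assembly, measured 42.4, 39.9 and 69.9 CPM at 18h, 44.6, 67 and 85.4 CPM at 20h and 202, 222 and 222 CPM at 22h (2.09 ± 0.33, adjusted p = 0.00899). The 22h libraries stood clear of the earlier 6. Nmd3 (2.03), the core protein of box C/D ribonucleoproteins Nop58 (1.99), and the processing factors Utp6 (1.86), Ftsj3 (1.69), Nifk (1.5), Bms1 (1.49) and Imp4 (1.44) were the others. In 22h over 20h, 11 rose (13.8%, against 4.15%) and 5 fell (6.25%, against 3.96%), and those that fell were Nop10, Nhp2, Imp3, Npm1 and Nsa2. Nop10 and Nhp2 are small proteins of box H/ACA ribonucleoproteins. Without any single 22h library, 1 member rose for 22h over 18h. The members of ribosome biogenesis and nucleolus that rose for 22h over 20h numbered 3 to 13 and those that fell 0 to 5 with 1 library left out, the fewest without 22h library 3.

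Among maternal oocyte genes, 6 of 58 rose (10.3%, against 1.94% of all genes) and 3 fell (5.17%, against 1.49%) at 22h compared with 18h. Compared with 20h, 14 rose (24.1%, against 4.15%) and 7 fell (12.1%, against 3.96%). With 1 library left out, 2 to 10 maternal oocyte genes rose and 0 to 3 fell for 22h over 18h, the fewest that rose without 22h library 3. Zp3, a glycoprotein of the egg coat, measured 25, 6.06 and 12.9 CPM at 18h, 41.5, 53.6 and 86.2 CPM at 20h and 104, 144 and 138 CPM at 22h (3.13 ± 0.48 for 22h over 18h, adjusted p = 0.00819). Tle6, a component of the subcortical maternal complex, measured 24.2, 20.9 and 34.9 CPM at 18h, 40.2, 81.4 and 65.2 CPM at 20h and 147, 169 and 227 CPM at 22h (2.76 ± 0.36, adjusted p = 0.00476). In both genes the libraries were stepped upward with time and no 2 times overlapped. Zar1 (2.18), which keeps maternal mRNA in the oocyte, the poly(A)-binding protein Pabpn1l (2.26), Padi6 (1.68) and Cpeb1 (1.67) also rose. Omt2a (-1.64), Oosp3 (-1.62) and Omt2b (-1.43) fell.

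Dppa3, also called Stella, which protects DNA methylation in the zygote, measured 7717, 12113 and 9728 CPM at 18h, 11438, 18876 and 17922 CPM at 20h and 2151, 5197 and 4395 CPM at 22h. It was lower at 22h than at 20h (-2.04 ± 0.39, adjusted p = 0.01), and its difference from 18h did not pass (-1.33 ± 0.38, adjusted p = 0.0766). Every 22h library was below every 18h one, which with 3 libraries a time does not show a change. The nuclear chaperone Npm2 (-1.82), Ooep (-1.88) and the oocyte-secreted protein Oosp1 (-1.87) also fell from 20h, while Bmp15 (1.78), Nobox (1.59) and Nlrp14 (1.89) rose. Spin1, a reader of histone methylation, measured 10567 to 23905 CPM over the 9 libraries with overlap at all times. The maternal oocyte genes that rose for 22h over 20h were 3 and those that fell 2 without 22h library 3, and 5 each without 20h library 2.

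Obox genes, homeobox factors of oocyte and early embryo that come in near-identical copies, summed to 18499.9, 18015 and 15644 CPM at 18h, 21782, 14609.8 and 21498 CPM at 20h and 6274, 9814 and 8385 CPM at 22h. All 22h libraries were below all others. Of 7 tested, 0 rose in any comparison, 1 fell for 22h over 18h (14.3%, against 1.49% of all genes) and 2 for 22h over 20h (28.6%, against 3.96%). Obox7 measured 1709.9, 2094 and 1259 CPM at 18h, 2192, 1440.1 and 2475 CPM at 20h and 369.7, 772 and 560.3 CPM at 22h (-1.84 ± 0.35 for 22h over 20h, adjusted p = 0.01). Obox1 fell from 20h by 1.5 (adjusted p = 0.019), and Obox5 (-1.19, adjusted p = 0.0576) and Obox2 (-0.58, adjusted p = 0.491) did not pass. None of the Obox homeobox genes passed by edgeR without 22h library 3.

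Two-cell genes, the transcripts of the minor wave, had a median log2 change of -2.46 for 20h over 18h, -0.49 for 22h over 20h and -2.70 for 22h over 18h, over 37 tested. For 22h over 18h 34 of them had a negative change. Past the threshold 5 fell (13.5%, against 1.49% of all genes) and 1 rose (2.7%, against 1.94%), and for 20h over 18h none passed. Their summed level was 5620.2, 2665 and 2587 CPM at 18h, 2287, 2004 and 2862 CPM at 20h and 1911, 2041 and 1880.4 CPM at 22h, so that 18h library 1 stood above the rest. Members that did not fall from 18h to 22h made up much of the later sums. Sp110 averaged 685, 1035 and 885 CPM at 18h, 20h and 22h, Zfp750 166, 141 and 289 CPM, and Arg2 107, 139.9 and 300.2 CPM. The sum therefore does not show the fall of the other members. Zscan4d, a regulator of telomeres and of the two-cell state, measured 318, 116 and 111 CPM at 18h, 69.2, 20 and 15.5 CPM at 20h and 67.4, 23.6 and 29 CPM at 22h (-2.18 ± 0.62 for 22h over 18h, adjusted p = 0.0728). Every 18h library of it was above every later one. Zfp352 measured 99.3, 77.9 and 113 CPM at 18h against 5.84 to 54.5 CPM at 20h and 19 to 51.8 CPM at 22h, and also did not pass (adjusted p = 0.207).

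Of the two-cell genes that fell, Gm5039, an Eif1a-like gene, measured 813, 253 and 112 CPM at 18h, 208, 19 and 19.5 CPM at 20h and 29.9, 4.06 and 6.46 CPM at 22h (-4.87 ± 1.12, adjusted p = 0.033). At each of the 3 times library 1 was the highest, and the labels do not pair libraries of different times. Gm20767 (-4.31), Gm8300 (-4.09), Ddit4l (-4.00) and AF067063 (-6.35) were the others. Arg2, an arginase of mitochondria, went the other way, with 139, 88.8 and 91.5 CPM at 18h, 158, 81.2 and 180.5 CPM at 20h and 285, 319.5 and 296 CPM at 22h (1.49 ± 0.33, adjusted p = 0.0279). Duxf3, the factor Dux that activates two-cell genes, stayed between 0.551 and 19 CPM and did not pass (adjusted p = 0.95). For 22h over 18h the two-cell genes had a median of -2.04 with 1 that fell without 18h library 1, and 0 fell without 22h library 2. Without 20h library 1 the two-cell genes had a median of 1.34 for 22h over 20h, so the direction rests on that library, and 11 were lower at 20h than at 18h.

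Cell cycle and mitosis genes rose at 22h over 18h in 6 of 65 tested (9.23%, against 1.94% of all genes) and fell in 1 (1.54%, against 1.49%). Compared with 20h, 11 rose (16.9%, against 4.15%) and 2 fell (3.08%, against 3.96%). Fbxo5, or Emi1, an inhibitor of the anaphase-promoting complex, measured 21.6, 33.7 and 49.1 CPM at 18h, 21.6, 67.3 and 81.9 CPM at 20h and 185, 237 and 247 CPM at 22h (2.68 ± 0.46, adjusted p = 0.0119). Cdc6, which loads the replicative helicase, measured 12.1, 21.5 and 9.47 CPM at 18h, 5.7, 15.8 and 7.96 CPM at 20h and 78.2, 66.4 and 53.8 CPM at 22h (2.2 ± 0.46, adjusted p = 0.0236). For both genes the 22h libraries alone were high. The mitotic kinase Cdk1 (2.34), the spindle checkpoint proteins Bub3 (2.37) and Bub1b (1.72) and the kinase Plk1 (1.48) also rose against 18h, and Pola1, the catalytic subunit of DNA polymerase alpha, fell (-1.31).

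Ccnb1, the cyclin of mitotic entry, had its lowest values at 20h, with 1162, 1471 and 3072 CPM at 18h, 1083, 494 and 647 CPM at 20h and 2913, 4147 and 4646 CPM at 22h (2.40 ± 0.43 for 22h over 20h, adjusted p = 0.00756). Against 18h its libraries overlapped and it did not pass (adjusted p = 0.19). Aurka (1.74), Aurkb (2.46) and Kif20a (2.52) rose from 20h, whereas Pttg1, or securin (-1.28), and Birc5, or survivin (-1.34), fell. Of the cell cycle and mitosis genes, 0 rose for 22h over 18h and 2 for 22h over 20h without 22h library 3.

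Genes of maternal mRNA decay rose in 4 of 31 tested for 22h over 18h (12.9%, against 1.94% of all genes) and 6 for 22h over 20h (19.4%, against 4.15%), and 0 fell by edgeR in either, while DESeq2 called 1 lower for 22h over 18h. They included Cnot9 (1.04 against 18h), a subunit of the CCR4-NOT deadenylase, the decapping scaffold Edc4 (1.93), Zcchc6, which adds uridines to mRNA tails (1.68), and Pabpn1l (2.26). Cnot7, a deadenylase of the same complex, measured 544, 672 and 1372 CPM at 18h, 589, 243 and 301 CPM at 20h and 1107, 1467 and 1672 CPM at 22h, and it rose from 20h (1.91 ± 0.42, adjusted p = 0.0169). Its 18h and 22h libraries overlapped. Btg4, the adaptor that brings CCR4-NOT to maternal mRNA, measured 5369 to 7814 CPM over the 18h and 20h libraries and 4993 to 6388 CPM at 22h, and did not pass. Of the maternal mRNA decay factors, none rose against 18h without any single 22h library, and against 20h 1 did without 22h library 3 and 0 without 20h library 2.

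Major genome activation genes rose in 2 of 35 for 22h over 18h (Nop58 and the proteasome subunit Psmd14) and fell in 1 (Polr2f, a subunit shared by the RNA polymerases), or 5.71% and 2.86% against 1.94% and 1.49% of all genes. For 22h over 20h 6 rose (17.1%, against 4.15%) and Polr2f fell (2.86%, against 3.96%). Klf17, a Krüppel-like factor, measured 435, 475 and 1331 CPM at 18h, 381, 384 and 277 CPM at 20h and 1987, 1667 and 1825 CPM at 22h (2.39 ± 0.41 for 22h over 20h, adjusted p = 0.00691). Every 22h library of it was above every other, and against 18h it did not pass (adjusted p = 0.0978). Hspa8 (2.1), the chaperonin subunit Tcp1 (1.98), the cap-binding factor Eif4e (1.48) and Psmc1 (1.19) also rose from 20h. Polr2f measured 156, 143 and 157 CPM at 18h, 193, 251 and 202 CPM at 20h and 43.9, 61.1 and 63.8 CPM at 22h (-1.94 ± 0.27, adjusted p = 0.00467). For 22h over 18h none of these passed without any single 22h library.

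Proteasome subunits rose in 4 of 32 for 22h over 18h (12.5%, against 1.94% of all genes) and in 4 for 22h over 20h (12.5%, against 4.15%), and 0 fell by edgeR. Without 20h library 1, 2 proteasome subunits were lower at 22h than at 20h, and DESeq2 called 5 lower. The summed level was 2853 ± 316 CPM at 18h, 4900.3 ± 1760.2 CPM at 20h and 4571 ± 726 CPM at 22h (SD, n = 3 each). Psma7, of the core particle, measured 126, 184 and 126 CPM at 18h, 237, 601 and 574 CPM at 20h and 493, 806 and 639.9 CPM at 22h (2.15 ± 0.37 for 22h over 18h, adjusted p = 0.0119). Psmd1 (2.15), Psmd12 (1.96) and Psmd14 (1.89), of the regulatory particle, rose as well, and without 22h library 2 or 3 there was 1 that rose.

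Of 47 spliceosome and SR proteins, 2 rose and 2 fell for 22h over 18h (4.26% each, against 1.94% and 1.49% of all genes), and 4 rose and 4 fell for 22h over 20h (8.51% each, against 4.15% and 3.96%). Those that fell were Snrpg (-2.56 against 20h), Snrpe (-1.87), Snrpb2 (-1.86) and Snrpd1 (-1.58), all small proteins of the spliceosomal ribonucleoproteins. Snrpg measured 452, 777 and 531 CPM at 18h, 604, 911 and 765 CPM at 20h and 71.9, 176 and 139 CPM at 22h, with all 22h libraries below the rest. Hnrnpk, an RNA-binding regulator, measured 67.5, 46.3 and 107 CPM at 18h, 45.1, 66.8 and 66.4 CPM at 20h and 282, 234 and 309 CPM at 22h (2.21 ± 0.34 for 22h over 20h, adjusted p = 0.0055). Sf3b4 (1.46), Tra2b (1.22) and the core factor Prpf8 (1.89) also rose. With median-of-ratios factors, in 22h over 20h, 1 of the spliceosome and SR proteins rose and 4 fell.

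Translation initiation factors rose in 4 of 40 (10%, against 4.15% of all genes) and fell in 3 (7.5%, against 3.96%) for 22h over 20h, and 0 passed by edgeR without 22h library 3. Eif4e, Eif2s1 (1.47), Eif4a2 (1.55) and Eif2b4 (1.87) rose and Eif3k (-1.37), Eif3i (-1.20) and Eif1ax (-1.12) fell. For 22h over 18h Eif3m rose (1.70) and Eif3i fell (-1.11), 2.5% each, against 1.94% and 1.49% of all genes. Heat shock proteins rose in 1 of 26 and fell in 1 for 22h over 18h (3.85% each, against 1.94% and 1.49%). For 22h over 20h 3 rose (11.5%, against 4.15%) and 2 fell (7.69%, against 3.96%), namely Hspa8, Dnajb1 (1.57) and Dnaja1 (1.35) against Hspb11 (-2.32) and Hspe1 (-2.23). Hspe1, the co-chaperonin of mitochondria, measured 131, 143 and 134 CPM at 18h, 153, 302 and 275 CPM at 20h and 33.1, 55.9 and 66.4 CPM at 22h. Its 22h libraries were all below the others. Hsp90aa1, a marker of early genome activation, measured 1542, 2620.1 and 1042 CPM at 18h, 4413, 7061 and 3985 CPM at 20h and 3739, 5738 and 3575 CPM at 22h, a change that did not pass for 20h over 18h (1.57 ± 0.39, adjusted p = 0.0994).

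Of the PRC2 subunits, 1 of 11 passed (9.09%, against 1.94% of all genes higher for 22h over 18h and 4.15% for 22h over 20h). Mtf2, an accessory subunit that brings PRC2 to CpG islands, measured 53.1, 33.6 and 59.2 CPM at 18h, 36.8, 56 and 67.6 CPM at 20h and 178, 189.6 and 155 CPM at 22h, and rose for 22h over 18h (1.84 ± 0.32, adjusted p = 0.0126) and over 20h (1.70 ± 0.32, adjusted p = 0.00984). Ezh2 measured 358, 781 and 503 CPM at 18h, 404, 414 and 391 CPM at 20h and 237, 331 and 255 CPM at 22h, without overlap between 22h and either earlier time, and did not pass (-1.0 ± 0.31 for 22h over 18h, adjusted p = 0.0983). Suz12 (-1.37, adjusted p = 0.0765) and Eed (0.06, adjusted p = 0.961), the other core subunits, did not pass. None of 16 PRC1 subunits passed by edgeR in a comparison of 2 times, although Pcgf1 and Yaf2 passed the test over all 3 times (adjusted p = 0.0367 and 0.0472), both with their highest mean at 20h. DESeq2 called 1 PRC1 subunit lower in each comparison with 22h, and without 20h library 1 edgeR called 2 higher and 2 lower for 20h over 18h. Without 18h library 2, 22h library 2 or 22h library 3, the adjusted p of Mtf2 for 22h over 18h was 0.0579, 0.0529 and 0.055.

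Among histone acetylation enzymes, a list that also holds deacetylases, Sirt6 rose for 22h over 18h (2.1 ± 0.42, adjusted p = 0.0185) and Hat1 (2.21), Sirt7 (1.95) and Kat7 (1.23) rose for 22h over 20h, of 22 tested (4.55% against 1.94% of all genes, and 13.6% against 4.15%). None of these passed by edgeR for 22h over 18h without 18h library 1 or 2 or 22h library 2 or 3, nor for 22h over 20h without 20h library 1 or 22h library 3. Sirt6 and Sirt7 remove acetyl groups, whereas Hat1 and Kat7 add them. Ep300, the acetyltransferase p300, measured 31.4, 19.4 and 28 CPM at 18h, 37.3, 27.7 and 4.96 CPM at 20h and 17.1, 13.4 and 10.2 CPM at 22h, and did not pass (-0.95 ± 0.58 for 22h over 18h, adjusted p = 0.432). Of 20 pluripotency genes Fbxo15 fell for 22h over 18h (-1.76, 5.0% of the list, against 1.49% of all genes). Of 25 p53 and stress response genes none passed for 22h over 18h. For 22h over 20h Mdm2 rose (1.46) and Ddit3 fell (-1.64), 4.0% each, near the 4.15% and 3.96% of all genes. None of 20 developmental regulators passed by edgeR or DESeq2 in these 2 comparisons.

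**Figure D4:**
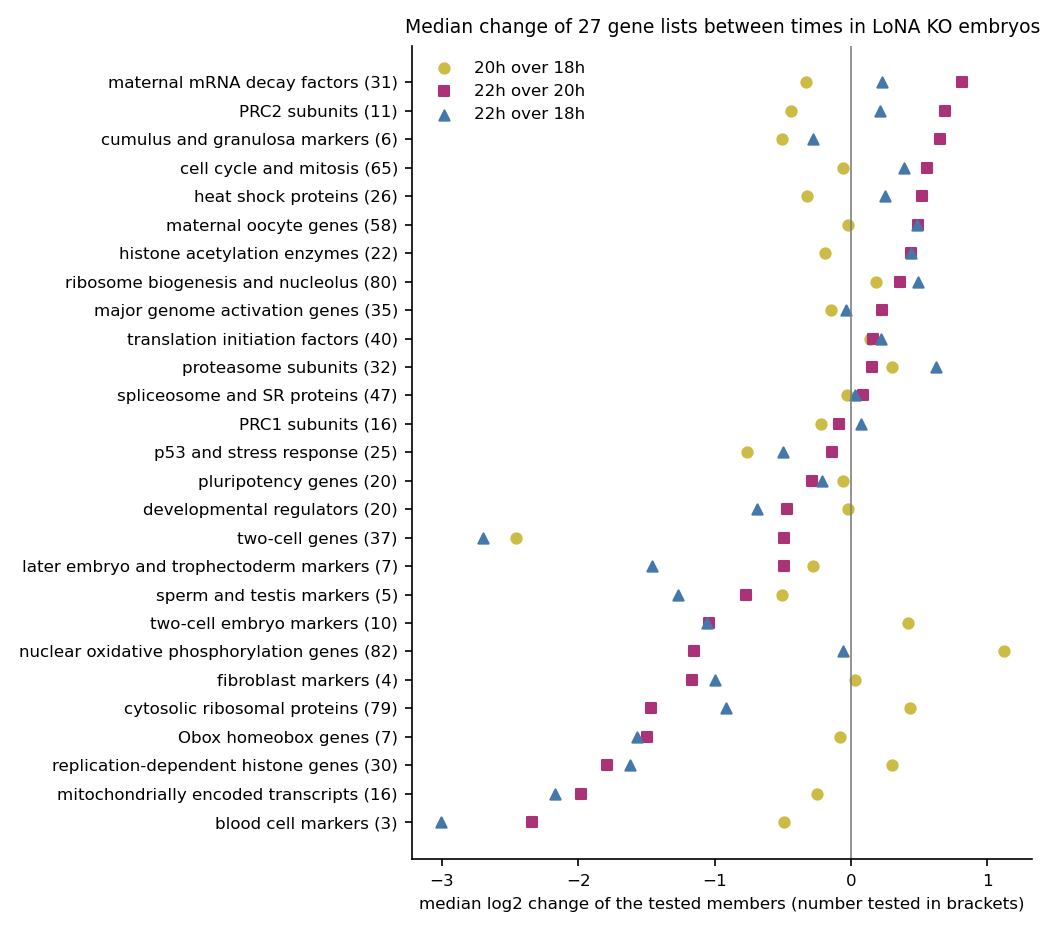
Median log2 change of the tested members of 27 gene lists in LoNA KO embryos for 20h over 18h, 22h over 20h and 22h over 18h, ordered by 22h over 20h, with the number tested in brackets. Maternal mRNA decay factors have the highest median for 22h over 20h at 0.81, and the lists lowest in both comparisons with 22h include mitochondrially encoded transcripts at -1.98 and -2.17.

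Marker genes of other cells were low, and their part in the results was not tested. Cumulus and granulosa markers summed to 24.5 to 44.1 CPM at 18h, 17.6 to 20.9 CPM at 20h and 57.2 to 94.6 CPM at 22h, most of it Cyp19a1 at mean levels of 25.5, 14 and 60.7 CPM. Cyp19a1 rose for 22h over 20h (2.12 ± 0.39, adjusted p = 0.00874), while Foxl2 stayed at or under 0.0301 CPM in the mean and Cd44, Ptgs2 and Inha were at 0 at 18h and 20h. Sperm and testis markers summed to 95.4 to 157 CPM at 18h, 45.3 to 102 CPM at 20h and 55.2 to 72 CPM at 22h. Of the 11, 8 had a count in a KO library, and Tnp1, Spata18 and Gapdhs were at 0 throughout. Prm2 measured 7.57, 15 and 5.5 CPM at 18h, so members not named here carried most of the 18h sum. Of 5 tested, Prm2 alone passed, lower in 22h over 20h (20%, against 3.96% of all genes). Fibroblast markers summed to at most 18.7 CPM and blood cell markers to at most 21 CPM in a library, with Lum at 0 throughout. Trophectoderm and later embryo markers summed to 67.5 to 144 CPM, mostly Gata3 and Tfap2c, with Cdx2 at mean levels of 0.48, 0 and 0.204 CPM. The two-cell embryo markers themselves summed to 19526 to 26397 CPM at 18h, 30147 to 37460.3 CPM at 20h and 8805 to 13358 CPM at 22h, and all 10 were tested. For 22h over 20h 5 were lower (50%, against 3.96% of all genes) and 0 higher, with 1 to 5 lower when 1 library was left out. For 22h over 18h 1 was higher (10%, against 1.94%) and 0 lower. Members such as Obox1 and Dppa3 are also in other lists above.

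The change over time in KO embryos was set beside that in control embryos, which come from other libraries of the same tables. Of the 321 genes higher at 22h than at 18h in KO embryos, 313 (97.5%) had a change of the same sign in control embryos, where their median log2 change was 1.24 and 99 passed on their own, against 0.984% of all genes higher in control embryos. Of the 246 lower in KO embryos, 238 (96.7%) had the same sign in control embryos, with a median of -1.11 and 61 that passed, against 0.605% of all genes lower in control embryos. Over all 19515 genes of the joint fit the control change was positive in 45.7% and negative in 53.9%. The genes were chosen on their KO change, so these sizes are a description and no test of a difference.

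The difference between KO and control in the change from 18h to 22h passed for 0 genes by edgeR (0.0%, lowest adjusted p = 0.428). Without adjustment 1066 of 19515 genes were under 0.05, and DESeq2 gave 42 calls. For 22h over 20h and 20h over 18h the edgeR count was also 0, with 1243 and 1377 genes under 0.05 before adjustment and 48 and 64 calls by DESeq2. If no gene differed, a share of about 0.05 of the genes would be under 0.05. The unadjusted counts are therefore a description and no count of differences. The wide spread of the libraries limits this test, and a p that misses the threshold does not show that the changes were alike. Npm1 changed by -1.38 in KO and -0.33 in control embryos for 22h over 18h, a difference of -1.08 ± 0.35 (adjusted p = 0.851). Differences come from the joint fit and KO changes from the fit of KO libraries alone, so they need not subtract exactly. Rps15a changed by -2.29 in KO and -0.74 in control embryos (difference -1.58 ± 0.60, adjusted p = 0.851), and Med17 by 4.03 and 2.51 (difference 1.5 ± 0.55, adjusted p = 0.851). Cytosolic ribosomal proteins had a median change of -1.47 in KO and -1.10 in control embryos for 22h over 20h, and mitochondrially encoded transcripts -2.17 and -1.25 for 22h over 18h. Other lists had the larger median change in control embryos for 22h over 18h, such as two-cell genes (-2.70 in KO and -3.04 in control embryos), proteasome subunits (0.62 and 0.94) and developmental regulators (-0.69 and -1.59). Gm15446, a zinc finger gene chosen from earlier results of these libraries, changed by 0.06 in KO and 4.22 in control embryos for 22h over 18h, with a difference of -4.19 ± 1.55 (adjusted p = 0.851).

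**Figure D5:**
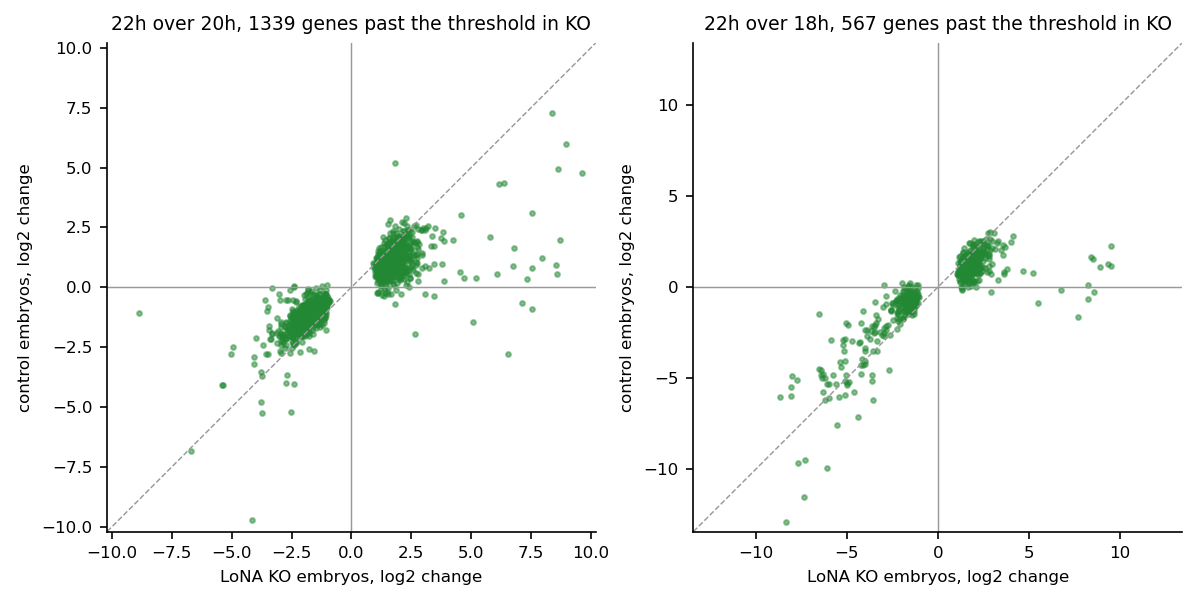
Log2 change of each gene past the threshold in LoNA KO embryos (horizontal axis) and in control embryos (vertical axis), for 1339 genes of 22h over 20h (left) and 567 genes of 22h over 18h (right), with a dashed line where both are equal. Of the 685 genes higher in KO for 22h over 20h, 663 lie above 0 in control embryos, and of the 654 lower, 651 lie below 0. Over all genes of the joint fit the control change for 22h over 20h was positive in 47.4% and negative in 51.7%.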

How the data were processed

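Read counts per gene for LoNA KO and control embryos at 18h, 20h and 22h were used as the authors deposited them, 1 table per time with Ensembl IDs and mm10 positions. Tools listed by the submitters' processing notes, with no role given, are HTSeq 0.6.0, HISAT2 2.1.0 and Bowtie2 2.2.3. The 3 tables were joined on 33824 gene IDs (22639 in all 3), with absent genes at 0, and 0 columns belonged to samples of no label. Counts of the 9 KO libraries were fitted together by time in edgeR 4.0.16 (R 4.3.3) with TMM factors, filterByExpr and the quasi-likelihood F-test, with Benjamini-Hochberg adjustment over 16519 genes at a threshold of 0.05. KO and control were compared in a joint fit of 18 libraries, and DESeq2 1.42.0 was an alternative. In 1 set of simulated counts for 22h over 18h (16519 genes, 50 changed at each size), 2% of genes changed 2-fold were recovered, 32% at 4-fold, 46% at 8-fold and 64% at 16-fold. There were 3 false calls. The 200 changed genes were fewer than the 567 called in the data, so recovery in the data may differ. A missed call says little about small changes. Named genes are the 10 largest rises and falls among protein-coding genes past the threshold, without overlap and with at least 10 CPM in the higher time, and the 4 highest or most changed members of each list, with Npm1, Ncl, Fbl, Ezh2, Ep300, Zscan4d, Zfp352, Duxf3, Gm17382 and Gm15446. Where fewer than 5 genes passed in a direction, the 5 with the smallest p are given. Other list members were named after their values were seen. The members and the 27 lists were chosen with earlier results of these data known. The 24h, embryonic stem cell and chromatin tables were not used here. Single values rest on 12135448 to 17724874 counts a library.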

Additional observations from a re-analysis of the deposited data

How the results depend on the processing

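The columns cannot be tied to the labelled replicates, so the number of a column within its table cannot be taken as a pairing of the samples. The labels do not say whether same-numbered columns share anything, and this was not tested. Deviations of same-numbered libraries from their time means correlated at 0.0124 to 0.139, and those of different-numbered libraries at -0.112 to 0.066. All same-numbered pairs were thus positive, although not every library correlated best with its own number. A replicate block on that number, chosen after seeing the data, gave 398 higher and 355 lower for 22h over 18h, 13 and 25 for 20h over 18h, 733 and 669 for 22h over 20h, 1518 over all times and 0 for the difference between KO and control. With this block 14 two-cell genes were lower for 22h over 18h and 10 for 20h over 18h.

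Counts of genes are given as higher then lower at the later time. For 22h over 18h they were 718 and 883 with DESeq2, 617 and 573 without a filter on low counts, 37 and 16 at an adjusted p under 0.01, and 376 lower with the controls in the fit. For 20h over 18h they were 622 and 531 with DESeq2, 0 and 0 with median-of-ratios factors and at 0.01, 419 and 356 without a filter, and 155 and 63 with the controls in the fit. For 22h over 20h they were 1122 and 1265 with DESeq2 and 93 and 147 at 0.01. The test over all times called 3015 genes with DESeq2, 2626 without a filter and 195 at 0.01, and the difference between KO and control called 42 with DESeq2 and 22 without a filter. The cause of these differences was not tested.

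Leaving out 1 library at a time gave 38 to 341 higher and 9 to 297 lower for 22h over 18h, 0 to 186 and 0 to 127 for 20h over 18h, 102 to 761 and 126 to 765 for 22h over 20h, 184 to 1631 over all times and 0 to 1 for the difference between KO and control. Without 22h library 1, 2 or 3 the counts for 22h over 18h were 93 and 61, 62 and 34, and 38 and 9, and without 18h library 2 they were 85 and 72. No called change of a named gene reversed its sign in any of these settings. Across the named genes, calls were lost in 97 cases and gained in 86 under other settings, and lost in 364 and gained in 17 with a library left out. The median of all genes for 22h over 18h was 0.02, and -0.07 with median-of-ratios factors. With 3 libraries a time of this spread, small changes were mostly not detectable.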
